A study of Mus musculus with 6 samples.

Results

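Tdrd7, Caprin2 and 8 further genes for proteins of cytoplasmic RNA granules were examined in newborn mouse lenses: Caprin1, Stau1, Stau2, Fxr1, Fmr1, G3bp1, G3bp2 and Tia1. The members were every probe set annotated to 1 of these 10 genes, which gave 33 of the 45037 probe sets on the arrays that were not controls. At gene level they were 10 of 18193 genes. The series compared whole lenses of transgenic and wild-type Balb/c mice, both at 2 days of age, with 3 Affymetrix arrays for each genotype. Per the design text, 12 lenses of each genotype were used. Whether the replicates are separate animals is not said, and the p-values therefore cover the spread among these arrays alone, part of which may be technical. The labels name neither the transgene nor the promoter or line behind it. They give no treatment. For short, the transgenic arrays are T1 to T3 and the wild-type arrays W1 to W3.

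RNA granules are bodies without a membrane in which messenger RNA and its binding proteins are stored, moved, silenced or degraded. Stress granules collect stalled translation complexes, processing bodies hold the decay machinery, and transport granules carry mRNA along microtubules. The lens depends on such control because its fiber cells lose their nuclei and then live on the transcripts and proteins already made. Tdrd7 encodes a Tudor domain protein of RNA granules whose loss causes cataract in mice and in people, and Caprin2 encodes an RNA-binding protein that is made as fiber cells differentiate.

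In transgenic lenses Tdrd7 and Caprin2 fell, and none of the 10 genes rose. Tdrd7 was 2.34-fold lower and Caprin2 1.73-fold lower in transgenic than in wild-type lenses. The other 8 genes, among them the Caprin2 paralog Caprin1 and the stress granule core genes G3bp1, G3bp2 and Tia1, did not pass the test, with differences from -0.33 to 0.13 on the log2 scale. Each gene was read by its brightest probe set, the one of highest mean across the 6 arrays. Genotypes were compared with limma, and an adjusted p under 0.05 was taken as a call. Of all genes, 4.55% were called, 2.61% lower (475 genes) and 1.93% higher (352 genes). With the deposited arrays shifted to a common median these counts were 666 and 252. The median difference of the 10 genes was -0.030, against 0.011 for all genes.

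The stretch before a listed start of transcription of Tdrd7 holds the letters of a TATA box. That stretch is therefore shown for both genes that fell, for the paralog Caprin1 and for Fxr1, of which 1 probe set fell. The RefSeq promoter table of GRCm38.p6 matched 9 of the 10 genes, all but Stau2. Each line gives the 30 bases from 50 to 21 bases before the most upstream start listed there for the gene. Bases run 5′ to 3′ on the gene's strand, with TATAAA in capitals. The RefSeq gene spans of Tdrd7 and Caprin1 begin further upstream, at 45965027 and 103797669, so these 2 stretches lie inside the spans.
Tdrd7, chr4:45965285-45965314, plus strand: catgaatgggtccactgccttTATAAAaag
Caprin2, chr6:148896258-148896287, minus strand: gagctcgcgtgctagagggcggggcagagg
Caprin1, chr2:103797099-103797128, minus strand: gcgcgtgcccgtgggccccttcctgccggc
Fxr1, chr3:34020029-34020058, plus strand: cccgcgacgctcgcccctcccccctcctcc

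The TATA box letters TATAAA of Tdrd7 began 29 bases before that start, and the same letters read on the other strand (TTTATA) overlapped them. Among 15 windows listed for the 9 genes, this was the 1 window with TATAAA on the gene's strand beginning 35 to 25 bases before the start. Of all 32851 windows in the table, 1.75% held it there. Of the 250 bases before the start, 47.6% were G or C in Tdrd7, 65.6% in Caprin2, 78.0% in Caprin1 and 80.0% in Fxr1, against a median of 52.4% over all windows. The same 250 bases held 3 CpG dinucleotides in Tdrd7, 20 in Caprin2, 31 in Caprin1 and 40 in Fxr1, with a median of 6 over all windows. Tdrd7 and Caprin2, which both fell, thus had sequences of unlike composition before these listed starts.

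Other motifs were searched on both strands of the 250 bases before each of the 15 listed starts. The Maf core TGCTGA, part of the element bound by the lens factor c-Maf, lay before a downstream start of Tdrd7 and before 1 start of G3bp2, and 16.1% of all windows hold it. The Sox core ACAAAG was found in 4 windows, belonging to Caprin1, G3bp1 and downstream starts of Stau1 and Tdrd7, with 16.5% of all windows holding it. The forkhead core GTAAACA was found before 1 start of Fmr1, and 3.17% of all windows hold it. The heat shock core GAANNTTC and the CREB and ATF core TGACGT were in none of the 15 windows, with 6.69% and 6.47% of all windows holding them. The window of Caprin2 held none of the 6 motifs searched.

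Tdrd7 stood at 11.94, 11.88 and 11.88 in the transgenic arrays and at 12.94, 13.19 and 13.25 in the wild-type arrays (log2 value, quantile normalised). The groups lay apart by about 1 log2 unit, and the transgenic arrays were nearly level. The means were 11.90 ± 0.03 and 13.13 ± 0.16 (SD, n = 3 each), a difference of -1.23 ± 0.10 (SE; 95% interval -1.46 to -0.99; limma adjusted p = 8.43e-04). With any 1 array left out the difference ran from -1.32 to -1.17, and the highest limma adjusted p was 0.00850.

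A second probe set of Tdrd7, 1459216_at, stood at 6.20, 6.37 and 6.33 in transgenic and at 7.19, 7.75 and 8.09 in wild-type arrays. It too separated the groups, with wild-type arrays more spread than transgenic ones. Its difference was -1.37 ± 0.20 (SE; limma adjusted p = 0.0104 over all probe sets). Without W2 the adjusted p was 0.0571 and the call was lost. Within arrays, its value minus that of the brightest one differed by -0.15 between the genotypes (exact permutation p = 0.50, two-sided, n = 3 each).

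Caprin2 stood at 10.45, 10.14 and 10.24 in transgenic and at 10.85, 11.09 and 11.25 in wild-type arrays. The groups did not overlap, and the gap between T1 and W1 was the narrowest. The difference was -0.79 ± 0.13 (SE; 95% interval -1.09 to -0.49; limma adjusted p = 0.0188). Caprin2 has a single probe set here, so no other reading of the gene is at hand. The call was lost without T2 (limma adjusted p = 0.0789), without W2 (0.0784) and without W3 (0.0685), with differences from -0.89 to -0.69 over the 6 arrays left out.

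**Figure D1:**
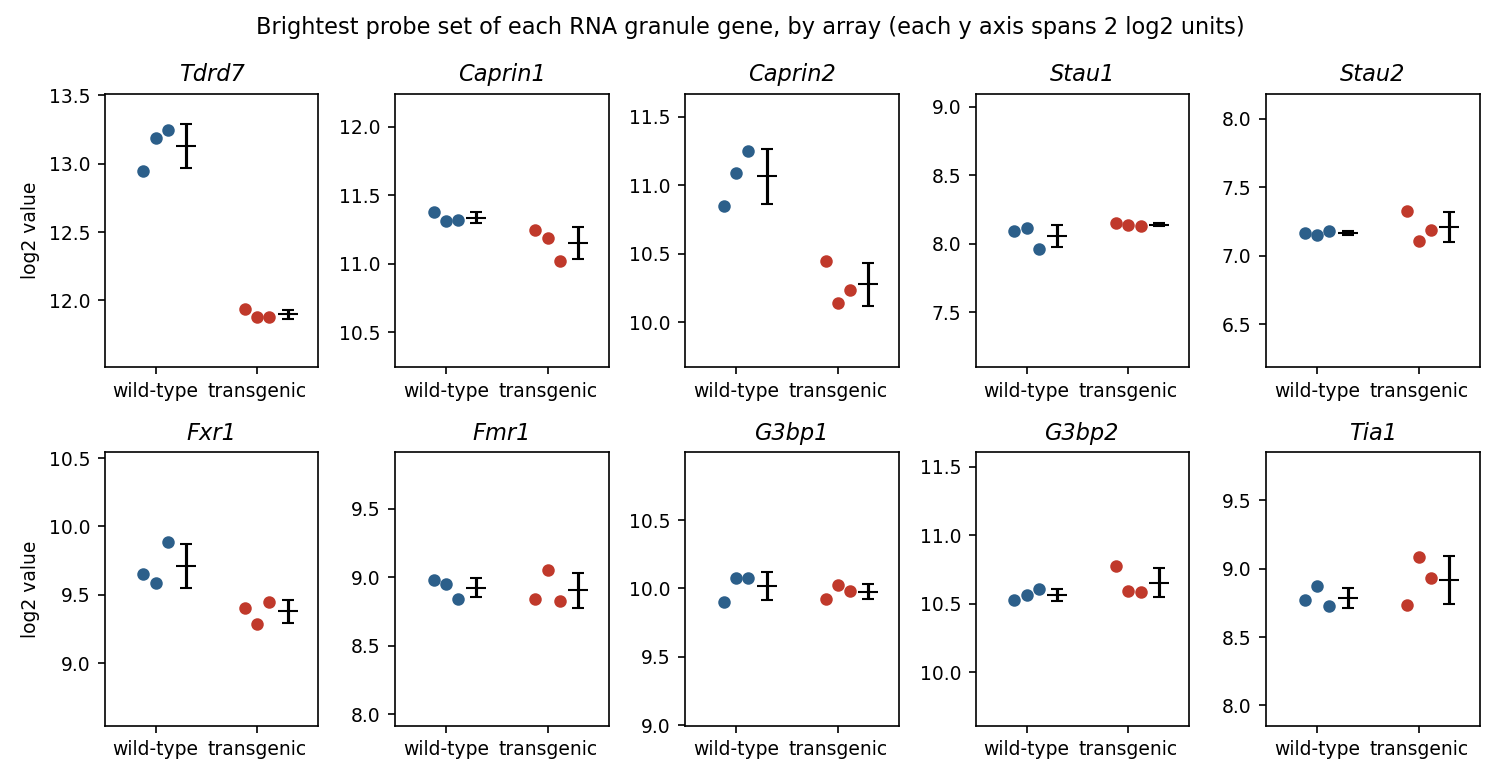
Log2 value of the brightest probe set of each of the 10 genes, with wild-type arrays in blue and transgenic arrays in red; 1 point per array, and the black bar beside each group is its mean and SD. Every panel spans the same 2 log2 units, so Tdrd7 and Caprin2 show gaps of 1.23 and 0.79 between group means while the other genes stay within 0.33.

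Whole lenses were measured, so fewer fiber cells and less RNA per fiber cell cannot be told apart. The lens origin was plain in the markers: all 11 measured fiber markers, such as the crystallin gene Cryaa and the water channel gene Mip, lay above the median of all probe sets, 5.34. Of the 11, 3 fell (Bfsp1, Birc7 and Dnase2b), none rose, and the summed linear level of the list was 126810 to 133645 in transgenic and 141740 to 147265 in wild-type arrays. Most of that sum came from crystallin genes near the top of the arrays' range, such as Crybb1 at 14.59 in every array. The sum is therefore a poor measure of fiber content. Of 8 epithelial markers 1 rose, the forkhead factor gene Foxe3, by 4.64, the largest difference of all genes. The other 7 did not pass, with differences from -0.23 to 0.52. Most retina markers were lower in transgenic lenses: 17 of 18 were below 0 and 2 of 18 fell (Elavl4 and Sncg). Their summed level was 3017 to 4807 in transgenic and 3990 to 6005 in wild-type arrays. Among the wild-type arrays this level was highest in W1 and lowest in W3, the reverse of the order of Tdrd7 and Caprin2. The median retina marker score of each array was used as a covariate, an alternative chosen after seeing the data. With it Tdrd7 differed by -1.35 (limma adjusted p = 0.0112) and Caprin2 by -1.05 (0.0216). The probe set 1459216_at of Tdrd7 then lost its call (limma adjusted p = 0.0597 over all probe sets). Array T3 carried skin and muscle transcripts, with a summed level of 27994 for skin and cornea markers against 1777 to 2843 in the other arrays, and of 9302 for muscle markers against 385 to 597. Without T3, Tdrd7 differed by -1.22 (limma adjusted p = 0.00200) and Caprin2 by -0.77 (0.0355). Array T2 carried more pigment epithelium, iris and ciliary body markers, with a summed level of 5066 against 1650 to 2545 in the other arrays. Blood markers were near background, with 3 of 4 under the median in both groups, and the summed levels of vessel and macrophage markers overlapped between the genotypes. Of 8 vessel markers 1 rose, the endothelial receptor gene Tek, by 0.49 (limma adjusted p = 0.0465), and its part in the results was not tested. The log2 ratio of the 3′ to the 5′ control probe set, a sign of RNA length, lay between 0.03 and 0.07 in transgenic and between -0.08 and 0.02 in wild-type arrays for Gapdh, and its part in the results was not tested. For Actb it was 0.23 to 0.36 and 0.20 to 0.33.

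Caprin1 encodes the paralog of Caprin2, an RNA-binding partner of the G3BP proteins in stress granules and transport granules. Its brightest probe set stood at 11.25, 11.19 and 11.02 in transgenic and at 11.38, 11.31 and 11.32 in wild-type arrays. The wild-type arrays were all higher, by a small margin. The difference of -0.19 ± 0.09 (SE; 95% interval -0.39 to 0.02) did not pass (limma adjusted p = 0.272). The interval leaves out a fall as large as the one fitted for Caprin2.

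The log2 ratio of Caprin2 to Caprin1 was -0.80, -1.04 and -0.78 in transgenic and -0.53, -0.22 and -0.07 in wild-type arrays. The ratio was lower in each transgenic array than in any wild-type array, by 0.60 on average. The exact permutation test gave p = 0.10 (two-sided, n = 3 each), the smallest that 3 arrays against 3 allow, and 0.20 adjusted over the 4 paralog pairs compared. The test cannot reach the threshold in this design.

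None of the 6 probe sets of Caprin1 passed the test over all probe sets. Differences of 5 of them lay between -0.24 and -0.12, while 1433901_at differed by 0.28 ± 0.09 (SE; limma adjusted p = 0.144 over all probe sets). That probe set stood at 9.87, 9.93 and 9.71 in transgenic and at 9.57, 9.63 and 9.49 in wild-type arrays, so every transgenic array was above every wild-type array. Relative to the brightest probe set within each array, it stood at -1.38, -1.26 and -1.31 in transgenic and at -1.82, -1.68 and -1.83 in wild-type arrays. That contrast of 0.46 between 2 probe sets of 1 gene was the widest among the members (exact permutation p = 0.10, two-sided, n = 3 each; 0.46 adjusted over 23 such contrasts). The probe set 1433901_at was singled out after its values were seen.

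**Figure D2:**
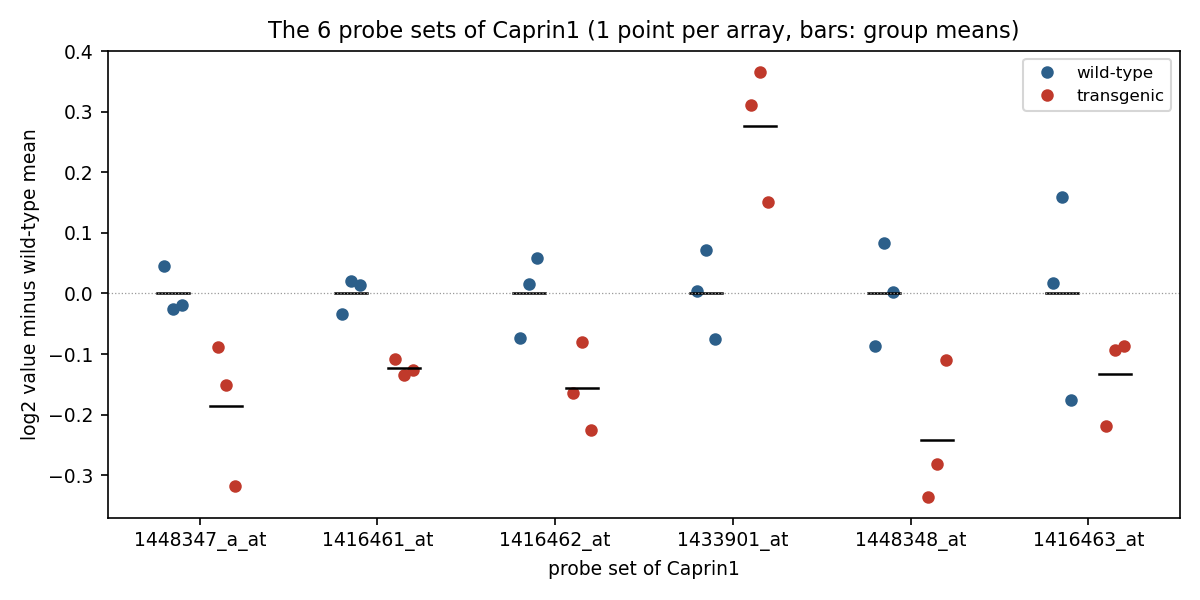
Log2 values of the 6 probe sets of Caprin1, each minus its wild-type mean, with wild-type arrays in blue and transgenic arrays in red, 1 point per array and bars at the group means. The transgenic points of 1433901_at lie above its wild-type points, and the group means of the other 5 probe sets are lower in transgenic arrays by 0.12 to 0.24.

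Fmr1 encodes the fragile X protein, which binds mRNA on ribosomes and restrains translation, and Fxr1 encodes a relative of it. The brightest probe set of Fxr1 stood at 9.41, 9.28 and 9.45 in transgenic and at 9.65, 9.59 and 9.89 in wild-type arrays. The groups did not overlap. The difference was -0.33 ± 0.11 (SE; 95% interval -0.57 to -0.09), which did not pass (limma adjusted p = 0.122). All 4 probe sets of Fxr1 were below 0, from -0.44 to -0.06.

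One of them, 1436400_at, fell by 0.44 ± 0.10 (SE; limma adjusted p = 0.0485 over all probe sets). It stood at 5.90, 5.76 and 5.60 in transgenic and at 6.23, 6.20 and 6.16 in wild-type arrays, not far above the median of all probe sets. This call was lost with any of the 6 arrays left out, at adjusted p from 0.0567 (without T1) to 0.143 (without W2). It was 0.142 without T2, 0.107 without T3, 0.0950 without W1 and 0.119 without W3.

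The brightest probe set of Fmr1 stood at 8.84, 9.05 and 8.82 in transgenic and at 8.98, 8.95 and 8.84 in wild-type arrays. The groups overlapped and the difference was -0.018 (95% interval -0.24 to 0.20; limma adjusted p = 0.935). Its sign turned under 5 alternatives, up to 0.14 with the retina score as a covariate. A second probe set differed by 0.081 and the third, 1426086_a_at, by -0.35 ± 0.11 (SE; limma adjusted p = 0.120). The log2 ratio of Fxr1 to Fmr1 was 0.57, 0.23 and 0.62 in transgenic and 0.67, 0.64 and 1.05 in wild-type arrays. Its mean was lower by 0.31 in transgenic lenses (exact permutation p = 0.10, two-sided, n = 3 each; 0.20 adjusted over the 4 pairs). As for the Caprin pair, this is the smallest p possible. With the probe sets of each gene averaged the ratio differed by -0.14.

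Stau1 and Stau2 encode Staufen proteins, which bind double-stranded RNA and carry mRNA in transport granules. Stau1 stood at 8.15, 8.14 and 8.13 in transgenic and at 8.09, 8.12 and 7.96 in wild-type arrays. The transgenic arrays were all slightly higher, with a difference of 0.083 (95% interval -0.11 to 0.27; limma adjusted p = 0.588), whose sign turned to -0.014 after centring on a common median. Stau2 stood at 7.33, 7.11 and 7.19 in transgenic and at 7.17, 7.15 and 7.18 in wild-type arrays. The groups overlapped and the difference was 0.044 (95% interval -0.16 to 0.25; limma adjusted p = 0.801). Its sign turned under 4 alternatives, to -0.032 after centring on a common median, -0.060 with its probe sets averaged, -0.015 without T1 and -0.052 with the retina score as a covariate. Of the other probe sets, 1425533_a_at of Stau2 differed by -0.25 ± 0.09 (SE; limma adjusted p = 0.176), without overlap. The ratio of Stau2 to Stau1 differed by -0.039 between the genotypes (exact permutation p = 0.60, two-sided, n = 3 each; the same after adjustment over the 4 pairs), and by -0.15 with the probe sets of each gene averaged.

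G3bp1 and G3bp2 encode the RNA-binding proteins that nucleate stress granules. G3bp1 stood at 9.92, 10.03 and 9.98 in transgenic and at 9.90, 10.08 and 10.08 in wild-type arrays. The groups overlapped and the difference was -0.041 (95% interval -0.25 to 0.16; limma adjusted p = 0.817), or 0.15 with its probe sets averaged. A second probe set, 1455060_at, differed by 0.35 ± 0.15 (SE; limma adjusted p = 0.239). G3bp2 stood at 10.77, 10.60 and 10.59 in transgenic and at 10.52, 10.56 and 10.61 in wild-type arrays. The groups overlapped here too, with a difference of 0.086 (95% interval -0.12 to 0.29; limma adjusted p = 0.601; -0.013 with the retina score as a covariate), and all 3 probe sets of the gene lay between 0.034 and 0.10. The ratio of G3bp2 to G3bp1 differed by 0.13 (exact permutation p = 0.30, two-sided, n = 3 each; 0.40 adjusted over the 4 pairs), and by -0.078 when each gene was the mean of its probe sets.

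Tia1 encodes an RNA-binding protein with a prion-like domain that drives assembly of stress granules. It stood at 8.73, 9.09 and 8.93 in transgenic and at 8.77, 8.87 and 8.72 in wild-type arrays. The groups overlapped and the difference was 0.13 (95% interval -0.12 to 0.38; limma adjusted p = 0.516). Of its 6 probe sets, 5 lay above 0, up to 0.34. The sixth, 1453803_at, differed by -0.041 and was the only member probe set under the median level of the arrays.

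Over all 33 member probe sets, 4 fell and none rose: both of Tdrd7, the 1 of Caprin2 and 1436400_at of Fxr1. Of all 45037 probe sets, 3.68% were called, 2.21% lower and 1.47% higher. The groups did not overlap for 11 of the 33 in the lower direction and for 3 in the higher, against 13.4% and 13.6% of all probe sets. Of the 11, 4 belonged to Caprin1, 2 each to Tdrd7 and Fxr1, and 1 each to Caprin2, Stau2 and Fmr1. The probe sets of a gene share transcripts, so they are not independent readings. The median difference of the 33 was -0.041.

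**Figure D3:**
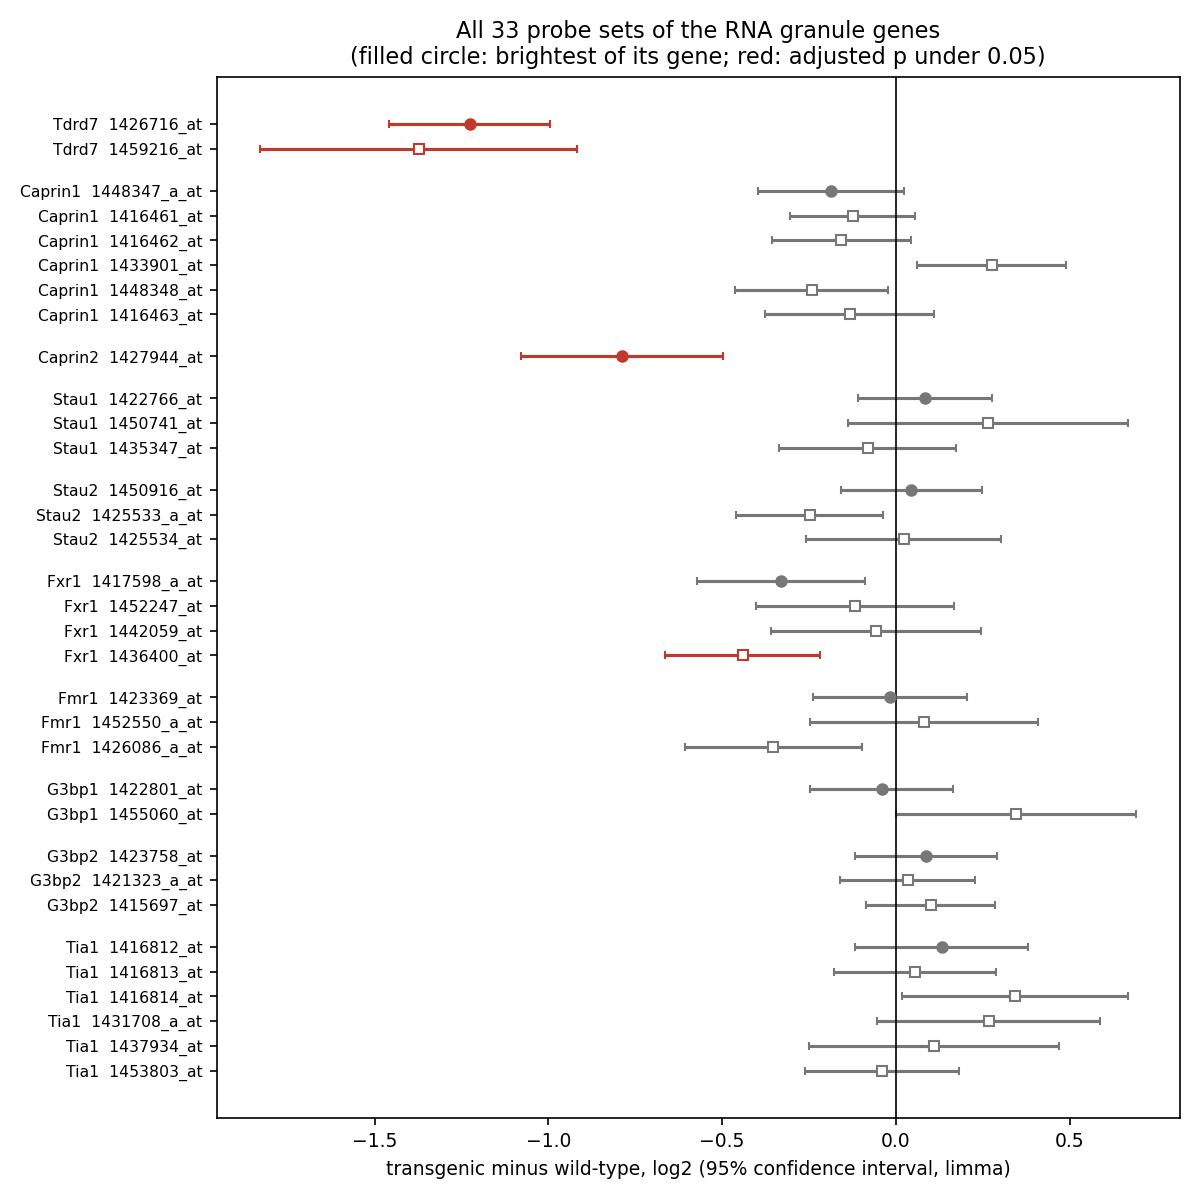
Difference between transgenic and wild-type lenses on the log2 scale for each of the 33 member probe sets, with its 95% confidence interval from limma. Filled circles mark the brightest probe set of each gene and red marks an adjusted p under 0.05; the 4 red points are both probe sets of Tdrd7, that of Caprin2 and 1436400_at of Fxr1.

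Across the 6 arrays, Tdrd7 and Caprin2 had a Pearson correlation of 0.97, which includes the difference between the groups that both share. Fxr1 had a correlation of 0.87 with Tdrd7 and 0.91 with Caprin2, and Caprin1 had 0.77 and 0.75. Among 11626 other genes at or above the median level, those most like Tdrd7 over the 6 arrays were Tmem179, Trafd1, Gtsf1, Zfand5 and Eaf1, with correlations of 0.998 to 0.999. Genes chosen for such likeness share the difference between the groups, and all 5 fell, with differences from -1.71 to -0.87. Those most like Caprin2 were Bcl2l2, Prox1, Ndufab1, Metrnl and Cep95, with correlations of 0.995 to 0.999. Of these, the fiber cell homeobox gene Prox1 changed by -1.04, Metrnl by -0.91 and the survival gene Bcl2l2 by -0.54, while Ndufab1 (-0.27) and Cep95 (-0.23) missed the threshold. Another probe set of Cep95 fell, at -0.73. Other probe sets of Prox1 (-0.33 and -0.68), Bcl2l2 (-0.47, -0.27 and -0.28) and Metrnl (-0.25 and 0.081) did not pass. These correlations rest on 6 points in 2 groups.

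The neighbours of both genes in the RefSeq order of GRCm38.p6, looked at outside the rule for named genes, were not called. Tmod1, which encodes a cap of actin filaments in fiber cells, is the nearest measured protein-coding gene after Tdrd7. It stood at 8.94, 8.67 and 8.91 in transgenic and at 9.18, 9.40 and 9.57 in wild-type arrays. The groups did not overlap, and the difference of -0.54 ± 0.13 (SE) missed the threshold (limma adjusted p = 0.0549). On the other side, Ccdc180 differed by -0.17. Beside Caprin2, Ipo8 differed by 0.14 and Sinhcaf by -0.18.

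Genes of 9 wider lists went both ways, and most did not pass. Of the lists, 7 hold genes of RNA granules, RNA-binding proteins or their control, and the others hold the Wnt receptor complex and lens genes studied with Tdrd7. Of 182 measured genes on all 9, 13 fell, 3 rose and 166 did not pass, which is 8.79% called against 4.55% of all genes. Of the 182, 163 lay at or above the median level, against 12090 of all 18193 genes, so the shares compare genes of unlike level. The count includes the 4 lens genes studied with Tdrd7, of which 2 fell. The median difference of the 182 genes was -0.0015. Of the 16 calls, 13 were lost when some array was left out, and Gtsf1, Cpeb3 and Rbm38 passed with any array left out. The 13 falls and 3 rises became 9 and 0 without T1, 4 and 0 without T2, 10 and 2 without T3, 10 and 2 without W1, 4 and 0 without W2, and 4 and 0 without W3. Calls over all genes shrank as well, from 475 lower and 352 higher. They became 251 and 112 without T1, 172 and 72 without T2, and 325 and 249 without T3. Without W1 they were 385 and 176, without W2 156 and 70, and without W3 156 and 76.

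Of 35 stress granule genes, 3 fell and 1 rose, with a median of 0.0039. Tardbp, which encodes the RNA-binding protein TDP-43, changed by -0.62 ± 0.09 (SE; limma adjusted p = 0.0105). The 4 other probe sets of Tardbp differed by -0.11 to 0.082, and the mean of its probe sets by -0.14. Eif4e, for the cap-binding translation factor, changed by -0.44, while its other probe sets differed by -0.64, -0.17 and -0.083. Upf1, for the helicase of nonsense-mediated decay, changed by -0.41, and Larp4b, for a poly(A)-associated protein, rose by 0.50. Leaving out 1 array ended the calls of Upf1 (any array, limma adjusted p up to 0.126), Larp4b (any array, 0.129), Eif4e (T1, T2, W1, W2 or W3, 0.123) and Tardbp (W2, 0.0525).

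Of 11 genes that control phosphorylation or exchange on eIF2, the switch that stalls translation and seeds stress granules, 1 fell and none rose, with a median of -0.053. This was Ppp1r15a, for a phosphatase subunit that reverses the stall, at 7.21, 6.92 and 6.89 in transgenic and 7.57, 7.75 and 7.90 in wild-type arrays. All wild-type arrays were higher. The change of -0.73 (limma adjusted p = 0.0210) was lost without T2, W2 or W3 (up to 0.0900).

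Of 48 processing body genes, 3 fell and 1 rose, with a median of 0.020. Ago2, which encodes the Argonaute protein that cuts target RNA, rose by 0.89 ± 0.16 (SE; limma adjusted p = 0.0249), and its other 3 probe sets differed by 0.38, 0.81 and 0.46. Tnrc6b, for a GW182 protein that joins Argonaute to the deadenylases, changed by -0.77, with other probe sets at -1.03 and -0.61. Zfp36, for tristetraprolin, which marks AU-rich mRNA for decay, changed by -0.81 and Lsm2, for a ring subunit in splicing and decay, by -0.50. Calls were lost for Ago2 (T1, T2, W2 or W3, 0.0986), Tnrc6b (T2, T3, W2 or W3, 0.132), Zfp36 (T1, T2, W1, W2 or W3, 0.104) and Lsm2 (T2, W2 or W3, 0.0933).

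Of 27 transport granule genes, 1 fell and 1 rose, with a median of 0.027. Cpeb3, which encodes a protein that binds the cytoplasmic polyadenylation element and represses translation, stood at 7.31, 7.14 and 6.98 in transgenic and at 8.18, 8.69 and 8.53 in wild-type arrays. The groups lay far apart, with a change of -1.32 ± 0.15 (SE; limma adjusted p = 0.00367). Other probe sets of Cpeb3 differed by -1.38, -1.10 and -0.13. Kif5c, for a kinesin that hauls such granules, rose by 0.50, but its other probe sets differed by -0.13 to -0.027, and the mean of all 4 by 0.069. Its call was lost without T1, T2, W2 or W3 (up to 0.0757).

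None of 12 other Tudor domain genes passed over all genes, with 8 differences below 0 and a median of -0.096. The lowest p belonged to Tdrd1 (-0.44; limma adjusted p = 0.0867), a germ cell gene at background level here, and Tdrkh (-0.62; 0.0888). Of 18 genes of germ granules and the piRNA pathway, 2 fell and none rose, with a median of -0.10, and 9 of the 18 lay under the median level. Gtsf1, which encodes a zinc finger protein that works with Piwi proteins, stood at 5.57, 5.52 and 5.44 in transgenic and at 6.98, 7.23 and 7.44 in wild-type arrays. It was just above the median level in transgenic lenses, and changed by -1.71 ± 0.12 (SE; limma adjusted p = 5.63e-04). A second probe set of Gtsf1 differed by -0.63 (adjusted p = 0.0335 over all probe sets). Pld6, for a mitochondrial phospholipase of piRNA biogenesis, changed by -0.48, with a transgenic mean of 5.24 under the median level, and was lost without T1, T2, W2 or W3 (limma adjusted p up to 0.0956).

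Of 18 RNA-binding protein genes studied in lens, 1 fell and none rose, with a median of 0.022. Rbm38, which encodes a regulator of splicing and mRNA stability, had means of 7.84 ± 0.18 in transgenic and 9.34 ± 0.26 in wild-type arrays (SD, n = 3 each), without overlap. It changed by -1.50 ± 0.15 (SE; limma adjusted p = 0.00237). Of 9 genes of the Wnt receptor complex, on which Caprin2 acts, none passed, with Gsk3b at 0.24 and Axin1 at -0.36 having the lowest p. Other probe sets of Gsk3b differed by -0.29 to 0.11, and the other of Axin1 by -0.23.

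Among 4 lens genes studied with Tdrd7, 2 fell. Hspb1, which encodes a small heat shock protein, stood at 9.76, 9.96 and 10.78 in transgenic and at 11.77, 11.97 and 12.35 in wild-type arrays. The groups lay far apart, and T3, the array with skin transcripts, was the highest transgenic array. The change was -1.86 ± 0.27 (SE; limma adjusted p = 0.0109), lost without T2 or W3 (up to 0.0536) and with the retina score as a covariate (0.0834). Epha2, for an ephrin receptor of fiber cells, changed by -0.61 (limma adjusted p = 0.0323), lost without T1, T2, T3, W2 or W3 (up to 0.118). Crybb3 (-0.013), near the top of the arrays' range, and Sparc (0.21) did not pass.

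**Figure D4:**
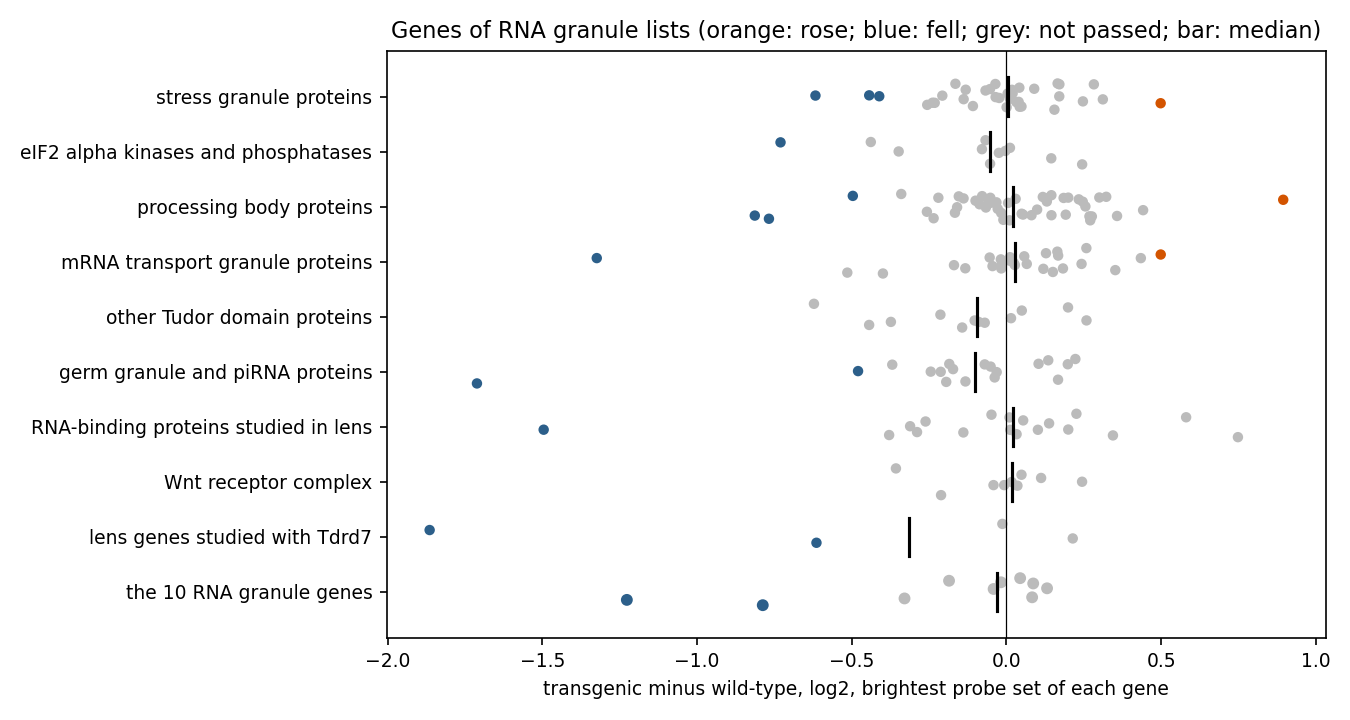
Difference between transgenic and wild-type lenses on the log2 scale for each measured gene of 9 lists and for the 10 RNA granule genes, by the brightest probe set, with points moved up or down only to keep them apart. Blue points fell, orange points rose, grey points did not pass, and black bars are list medians; most points of every large list lie near 0 and the few calls lie mostly to the left.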

How the data were processed

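Total RNA of whole lenses was taken up with a GenElute kit and biotin labelled, per the labels' protocols. The authors deposited log2 values for each array. How they summarised and normalised them is not given in the sources, and the log2 scale was read from the range, 2.68 to 14.8. After 64 control probe sets were set aside, upper quartiles differed by 0.120 between arrays, and all arrays were quantile normalised together. Gene names came from the platform annotation in GEO, brought up to date by RefSeq (GRCm38.p6; 99.4% matched). Limma 3.58.1 (R 4.3.3; lmFit, eBayes, Benjamini-Hochberg, threshold 0.05) was fitted over 18193 genes by their brightest probe set, and separately over 45037 probe sets. Paralog ratios were compared by exact permutation. No 2 arrays held the same values. The number of arrays limits precision.

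On simulated data with 18193 genes, the fit for this comparison recovered 21.8% of changes of 0.5 on the log2 scale, 90.1% of 1 and 99.1% of 2. Of the calls made on the simulated data, 5.52% were false.

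The members, gene lists and tests were chosen with earlier results of these data known. Named genes were all members, up to 4 called genes per list by smallest p (the 2 with the smallest p where none was called), and the 5 genes most like Tdrd7 and Caprin2, without provisional symbols. Alternatives covered normalization, dim probe sets, the variance prior, array weights, a replicate block, averaging over probe sets of 1 gene and each array left out.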

Additional observations from a re-analysis of the deposited data

How the results depend on the processing

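At gene level Tdrd7 fell under every alternative tried, and no member rose under any. With the replicate number as a block, 1 member gene and 2 member probe sets fell and none rose. On the wider lists 5 genes then fell and 0 rose. Of all genes, 154 were lower and 69 higher with the block, against 475 and 352 without it. Deviations of same-numbered arrays correlated at -0.05, 0.08 and 0.03, and those of other arrays of the 2 groups at -0.12 to 0.07. With 3 arrays in each group these values cannot decide whether the numbers pair the arrays. Caprin2 had a limma adjusted p = 0.0787 with the block. The paralog ratios have the same values with the block, where exchanges within 3 pairs allow no p under 0.25. With the retina score as a covariate, 2 member probe sets fell, and 4 genes of the lists fell and 0 rose. Calls over all genes were then 138 lower and 27 higher. With probe sets of 1 gene averaged, 1 list gene rose, beside 267 of all genes. The G3bp2 to G3bp1 ratio was then -0.078 in place of 0.13, Fxr1 to Fmr1 -0.14 in place of -0.31 and Stau2 to Stau1 -0.15 in place of -0.039. With 1 array left out, 1 to 2 member genes and 1 to 3 member probe sets fell, and 4 to 10 list genes fell and 0 to 2 rose. Over all genes, 156 to 385 were lower and 70 to 249 higher with 1 array left out. The paralog differences then ran from -0.73 to -0.50 for Caprin2 over Caprin1, from -0.39 to -0.18 for Fxr1 over Fmr1, from 0.039 to 0.18 for G3bp2 over G3bp1 and from -0.093 to 0.016 for Stau2 over Stau1, which turned to 0.0084 without T2 and 0.016 without W3. Other alternatives kept the member and list counts within 1.5 times. Values near the arrays' background or ceiling limit what a change can show.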
